A study of Mus musculus with 16 samples.

Results

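The collagen chains are the proteins from which the fibres and networks of the extracellular matrix are built. In the RNA of 16 subcutaneous B6MyC-CaP tumours, 45 protein-coding mouse genes had a symbol of the form Col, a number, a and a number. Of these, 44 encode collagen chains and are described here, out of 55414 gene IDs in the count table. The other, Col4a3bp, encodes a ceramide transfer protein and was set aside. B6MyC-CaP is a prostate cancer cell line from the Hi-MYC mouse, which carries a MYC transgene in the prostate, on a C57BL/6 background. The cells were placed under the skin of male C57BL/6 mice aged 6 weeks, and treatment began once tumours had formed. The 4 groups held 4 tumours each: Vehicle (chow freely available, no enzalutamide), ENZ (the same feeding with the antiandrogen drug enzalutamide by daily oral gavage at 20 mg/kg), ADF (alternate-day fasting, 24 hours without food and 24 hours of free feeding) and ADF+ENZ (both). All tumours came from the same line, so the groups are models of 1 tumour of origin in hosts with an intact immune system. The labels do not say that each tumour came from its own mouse, nor whether fasted mice were fasting or fed at collection. The p-values below set group differences against the spread between these samples within groups.

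Collagen chains fold as trimers into a rope-like helix. The fibrillar collagens I, III and V form the load-bearing fibrils of connective tissue, and in tumours are made mainly by fibroblasts. Collagen IV forms the sheet of basement membranes under epithelium and around blood vessels. Collagen VI makes beaded microfibrils, the fibril-associated collagens decorate fibrils, collagens VIII and X form short-chain networks, and collagens XIII, XVII, XXIII and XXV cross the cell membrane. New chains are hydroxylated on proline and lysine, folded with chaperones, trimmed of their propeptides outside the cell and crosslinked by lysyl oxidases.

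The libraries held 10072489 to 25505655 counts assigned to genes. Reads in no feature made up 30.3% to 36.7% of all entries in ADF, against 23.4% to 27.9% in Vehicle, 24.5% to 27.9% in ENZ and 21.2% to 26.1% in ADF+ENZ. Reads with several positions made up 4.10% to 5.03% in ADF and 6.51% to 7.96% in the other groups, and ambiguous reads 2.71% to 3.02% and 3.44% to 5.26%. ADF did not overlap the other groups in any of these 3 measures, so ADF and they cannot be told apart in a comparison with ADF. Each call named below that was lost with the reads in no feature as a covariate is given with its value in that fit, except that of Colgalt1 in ADF against Vehicle. That fit left few or no calls among all genes in the comparisons with ADF, so a loss there is not particular to a gene. The keratins of glandular epithelium were present (Krt8 at 206 to 661 CPM, Krt18 at 61.4 to 235 CPM, where CPM are read counts scaled by TMM to the same library total). The epithelial markers Epcam, at 0 to 0.808 CPM, and Esrp1, at 0 to 0.179 CPM, were near 0, Cdh1 was at 1.43 to 5.26 CPM, and the prostate secretory gene Pbsn had 0 counts. Summed markers of fibroblasts were at 4111 to 5442 CPM in Vehicle, 3755 to 4244 in ENZ, 3119 to 4222 in ADF and 3711 to 5118 in ADF+ENZ. Of the 10 fibroblast markers, 1 fell in ADF against Vehicle, and 1 rose in ADF+ENZ against Vehicle and against ENZ, and with the covariate edgeR called 0 in each of these. Of all genes, 4.96% fell in the first of these comparisons, and 5.97% and 0.813% rose in the other 2. Their median log2 difference from Vehicle was 0.23 for ENZ, 0.58 for ADF and 0.33 for ADF+ENZ, all above 0, while the sums were lower or overlapped. Markers of skeletal muscle (1.79 to 26.7 CPM), cartilage and bone (1.95 to 12.4), keratinocytes (5.66 to 9.11, with Krt1 and Flg at 0) and Schwann cells (10.3 to 14.8) were low in all libraries. In a whole tumour, fewer cells that make a collagen and less of its RNA per cell cannot be told apart.

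Sequences upstream of 5 chains are shown, and no result below uses them. The chains were chosen once their results were known: Col7a1 passed the threshold in 2 comparisons in every left-out-library fit, Col24a1 passed the interaction, Col8a1 was lower in ADF+ENZ than in both Vehicle and ADF, and Col4a5 and Col4a6 start from neighbouring promoters. Each sequence ends at the base before the annotated start, is from RefSeq (GRCm38.p6), and is written 5′ to 3′ on the gene's own strand. Capitals mark, on either strand, a TATA box searched as TATAAA, a GC box searched as GGGCGG, or a CCAAT box searched by the letters of its name.
Col7a1, chr9:108953336-108953585, plus strand: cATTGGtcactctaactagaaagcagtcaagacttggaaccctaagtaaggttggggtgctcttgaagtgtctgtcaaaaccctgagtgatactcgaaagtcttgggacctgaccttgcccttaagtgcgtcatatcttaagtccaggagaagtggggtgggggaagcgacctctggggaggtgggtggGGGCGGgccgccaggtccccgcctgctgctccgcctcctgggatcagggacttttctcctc
Col24a1, chr3:145292222-145292471, plus strand: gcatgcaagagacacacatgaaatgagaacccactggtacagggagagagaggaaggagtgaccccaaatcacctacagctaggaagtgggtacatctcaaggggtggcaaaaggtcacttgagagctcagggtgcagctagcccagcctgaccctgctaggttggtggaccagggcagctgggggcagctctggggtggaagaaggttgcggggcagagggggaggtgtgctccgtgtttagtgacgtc
Col8a1, chr16:57754738-57754987, minus strand: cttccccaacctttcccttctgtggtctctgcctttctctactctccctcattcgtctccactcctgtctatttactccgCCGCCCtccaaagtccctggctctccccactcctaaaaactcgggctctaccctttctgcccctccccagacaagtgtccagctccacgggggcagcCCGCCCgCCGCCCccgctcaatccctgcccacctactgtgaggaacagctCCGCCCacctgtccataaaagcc
Col4a5, chrX:141475169-141475384, plus strand: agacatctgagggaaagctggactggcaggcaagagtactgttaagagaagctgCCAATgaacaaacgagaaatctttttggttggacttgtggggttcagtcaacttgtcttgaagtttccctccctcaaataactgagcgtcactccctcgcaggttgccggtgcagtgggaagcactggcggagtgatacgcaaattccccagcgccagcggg
Col4a6, chrX:141474077-141474326, minus strand: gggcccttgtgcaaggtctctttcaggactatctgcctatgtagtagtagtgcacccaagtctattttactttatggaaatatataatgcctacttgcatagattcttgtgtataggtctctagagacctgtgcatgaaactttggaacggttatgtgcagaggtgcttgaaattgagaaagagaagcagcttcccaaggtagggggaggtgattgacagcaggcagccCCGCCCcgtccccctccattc
The Col8a1 window held 4 GC boxes, the Col24a1 window held no match to the 3 motifs, and the Col7a1 window held 1 CCAAT box and 1 GC box. Of the 20 chains with a RefSeq window of 250 bases free of annotated untranslated regions of transcripts, 4 held a TATA box, 4 a CCAAT box and 11 a GC box. Other transcribed sequence was not screened for. Over 32841 windows of 250 bases of all genes, the shares were 12.4%, 33.9% and 32.7%. The windows of all genes were not screened for untranslated regions, so the 2 sets are not alike. These are matches of letters, not sites of binding, and windows were not ranked by response.

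Collagen RNA was 1.13% to 1.57% of assigned counts in Vehicle, 1.04% to 1.38% in ENZ, 1.22% to 1.61% in ADF and 1.26% to 1.47% in ADF+ENZ, and the 4 groups overlapped. Per kilobase of exon, the scale on which genes can be compared, 10 chains held 93.5% (mean of 16 libraries, range 92.3% to 94.96%) of the summed collagen level. Col3a1, the chain of collagen III, led with a mean of 353.7 CPM per kilobase, followed by the collagen IV chain Col4a1 (238.9), the collagen I chain Col1a1 (236.7), Col4a2 (175.4), Col1a2 (160.2) and Col4a5 (147.6). Col6a1 (91.3), Col18a1 (72.6), Col5a1 (37.1) and Col6a3 (32.0) completed the 10. The ranges of each pair of neighbours in this order overlapped over the 16 libraries. Compared within a library, only Col18a1 and Col5a1 among these neighbours kept their order in all 16. The order also depends on the length used: with the longest transcript in place of all exons, Col3a1 was at 624.1 and Col1a2 came to rank 2 at 372.2. Col1a1 was 1.47 ± 0.225 (SD, n = 16) times as high as Col1a2 with all exons and 0.702 times with the longest transcript, so which of the 2 collagen I chains was higher is not settled per length.

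**Figure D1:**
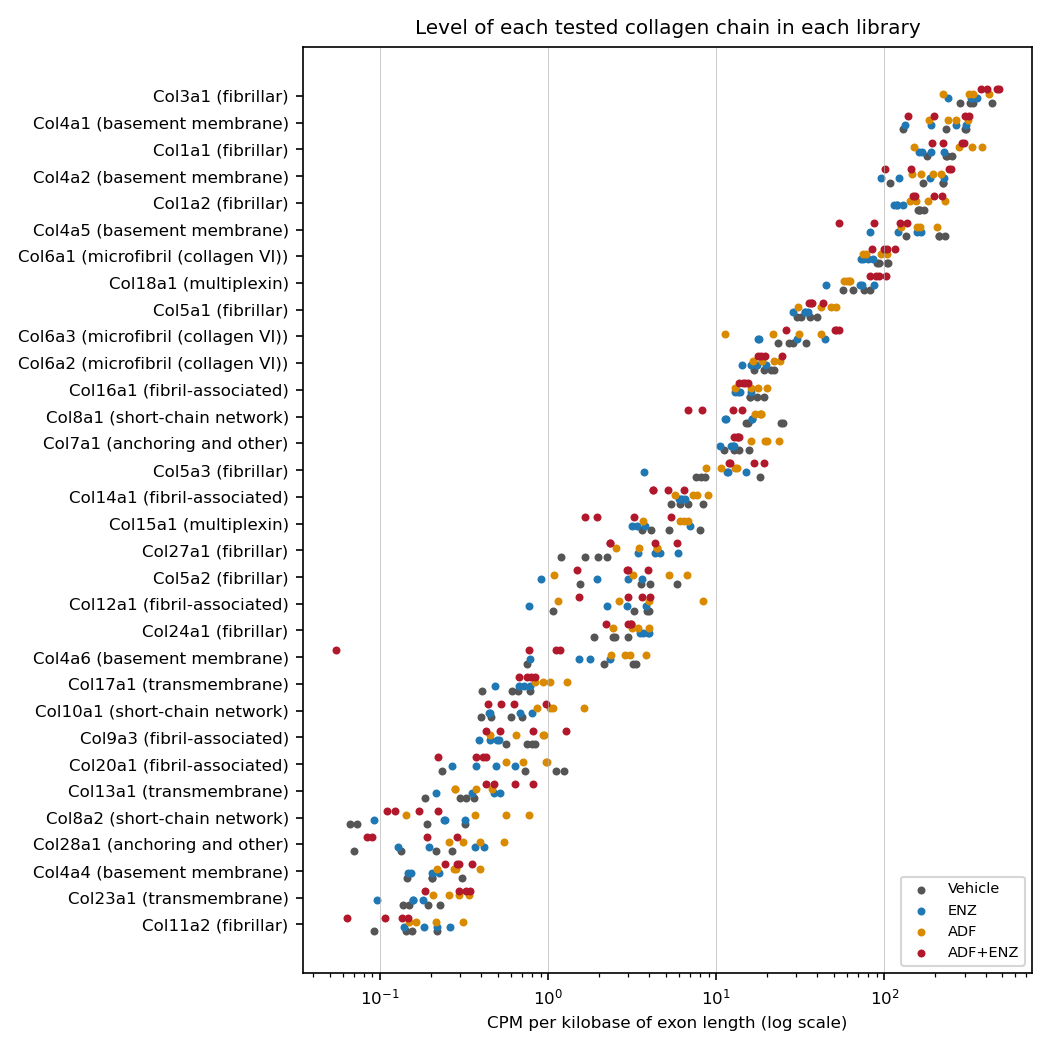
Level of each of the 32 tested collagen chains in each of the 16 libraries, in CPM per kilobase of exon on a log axis, coloured by group, with chains in order of their mean. Col3a1, Col4a1 and Col1a1 sit at the top, and the 4 groups overlap for most chains.

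Of the 44 chains, 32 passed the filter on low counts and were tested, and 12 did not (Col2a1, Col11a1, Col4a3, Col6a4, Col6a5, Col6a6, Col9a1, Col9a2, Col19a1, Col22a1, Col25a1 and Col26a1). The 12 include all that was measured of collagen II, XIX, XXII, XXV and XXVI, which are collagens of cartilage, muscle junctions or nervous tissue, or of other restricted sites. Their counts over all 16 libraries ran from 0 for Col9a1 to 108 for Col11a1, and none was above 1.48 CPM in any library. For Col9a1 the limit that 0 counts allow, 3 counts over a group, was 0.0443 to 0.0535 CPM, for counting error only. The tested chains cover 9 of 11 fibrillar chains, 5 of 6 of collagen IV, 3 of 6 of collagen VI, 5 of 9 fibril-associated chains, all 3 short-chain and both multiplexin chains, 3 of 4 transmembrane chains, and 2 of 3 others.

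Rose, fell and passed refer to edgeR's test with an adjusted p under 0.05, unless another tool is named. Few chains changed, and their number was near the share of all genes that did. With enzalutamide alone (ENZ against Vehicle), 2 of 32 chains rose and 0 fell, against 5.43% of all genes (1.81% higher and 3.62% lower). The median log2 difference of the chains was -0.17, against 0.01 for all genes, with 24 of 32 below 0. With fasting alone (ADF against Vehicle), 4 of 32 rose and 0 fell, against 9.01% of all genes (4.05% higher and 4.96% lower), and the median was 0.14. With both (ADF+ENZ against Vehicle), 2 rose and 2 fell, against 12.5% of all genes (5.97% higher and 6.53% lower), and the median was 0.03. Fasting in enzalutamide-treated mice (ADF+ENZ against ENZ) had 0 of 32 past the threshold by edgeR's quasi-likelihood test, against 1.09% of all genes (0.813% higher and 0.274% lower). In that comparison 9 chains had an unadjusted p under 0.05, and DESeq2 called 2 chains and limma-voom 1. Enzalutamide in fasted mice (ADF+ENZ against ADF) had 1 higher and 5 lower, against 16.3% of all genes (8.72% higher and 7.54% lower), with a median of -0.19. The interaction, which asks whether the fasting effect differs with enzalutamide, had 1 of 32, which was lower, against 3.1% of all genes (2.18% higher and 0.918% lower). The comparisons share libraries with each other, so their counts are not independent.

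Group ranges did not overlap for 5 chains in ENZ against Vehicle (2 higher, 3 lower), where 12% of all genes tested did not overlap. The count was 4 in ADF against Vehicle (all higher), where 16.5% of all genes did not. It was 5 in ADF+ENZ against Vehicle (3 higher, 2 lower), beside 17.3% of all genes. It was 7 in ADF+ENZ against ENZ (6 higher, 1 lower), beside 8.67%, and 7 in ADF+ENZ against ADF (1 higher, 6 lower), beside 20.5%.

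**Figure D2:**
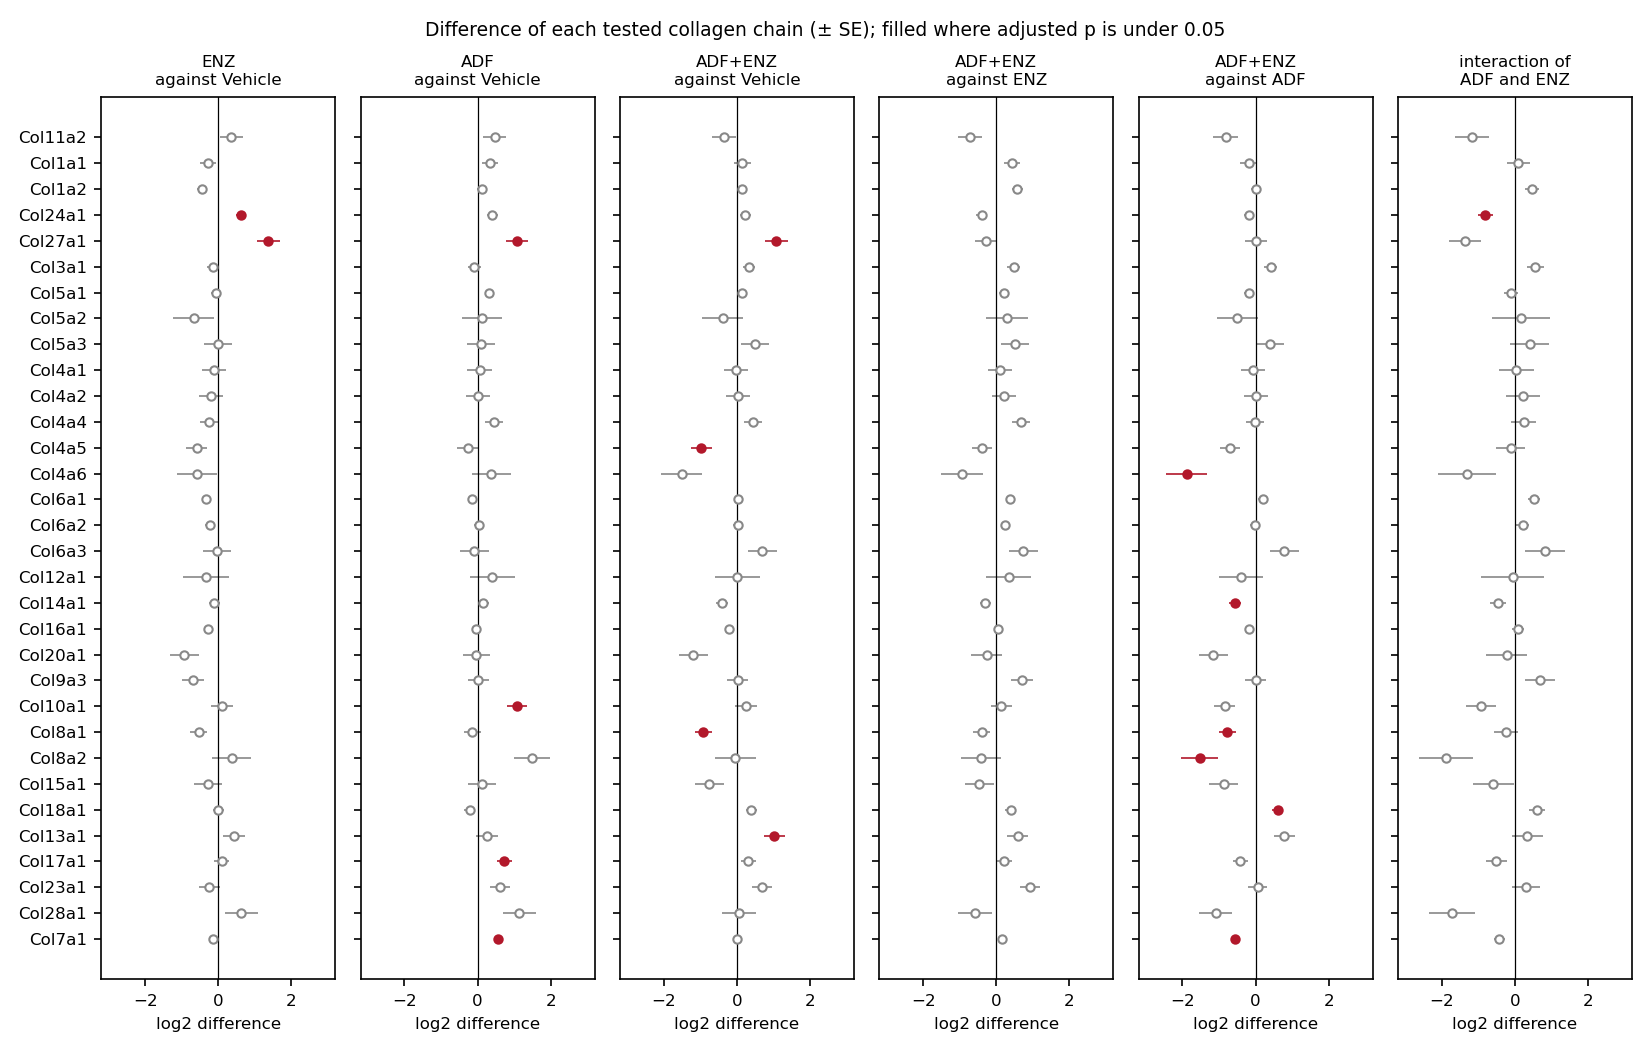
The log2 difference with its SE for each of the 32 tested chains, in 5 comparisons and the interaction, with filled points where the edgeR adjusted p is under 0.05. There are 17 filled points on 12 chains, and none in ADF+ENZ against ENZ.

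With all 16 libraries, the major fibrillar chains passed the threshold in no comparison. With each of 8 libraries left out in turn, Col1a1 and Col5a1 each passed in 1 fit of ADF against Vehicle. In such fits Col3a1 passed in 1 of ADF+ENZ against ADF, and Col1a2 in 2 of ADF+ENZ against ENZ. In each list of values the libraries follow the replicate numbers 1 to 4, which only name them. Col1a1, the major chain of collagen I, was at 1666, 1532, 1178 and 1541 CPM in Vehicle and at 1484, 1246, 1094 and 1061 CPM in ENZ. The ADF libraries were at 987, 2507, 2184 and 1813 CPM and those of ADF+ENZ at 1941, 1263, 1888 and 1475 CPM. Col1a1 ranged most within ADF, which held both the lowest and the highest of the 16 libraries. Col1a2, its partner in the collagen I trimer, was at 1998, 2143, 2022 and 1979 CPM in Vehicle and at 1602, 1477, 1483 and 1413 CPM in ENZ. Values were 1766, 2862, 2256 and 1929 CPM in ADF and 2721, 1901, 2455 and 1839 CPM in ADF+ENZ. All 4 ENZ libraries were below all 4 of Vehicle and all 4 of ADF+ENZ. The log2 difference of Col1a2 was -0.45 ± 0.14 (SE), adjusted p = 0.0703 in ENZ against Vehicle, and 0.58 ± 0.14 (SE), adjusted p = 0.0512 in ADF+ENZ against ENZ, both just outside the threshold. With DESeq2 both passed (adjusted p = 0.0192 and 0.00321), and they also passed with limma-voom (0.0378 and 0.0337).

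Col3a1, the collagen III chain that mixes into collagen I fibrils, was at 4300.2, 3173, 2772 and 3301 CPM in Vehicle and at 2335, 3472, 3242 and 3198 CPM in ENZ. Its level was 2198, 4095, 3327 and 3142 CPM in ADF and 4712, 3692, 4599.8 and 3998 CPM in ADF+ENZ. The groups overlapped except that ADF+ENZ lay above ENZ, with a log2 difference of 0.47 ± 0.17 (SE), adjusted p = 0.185. Col5a1, a chain of the collagen V that starts fibrils, was at 336, 307, 258 and 271 CPM in Vehicle and at 243, 298, 288 and 284 CPM in ENZ. Under ADF it measured 261, 439, 410.0 and 355 CPM, and under ADF+ENZ 313, 310.3, 301 and 365 CPM. ADF+ENZ was above ENZ in all 4 libraries here too, by 0.21 ± 0.13 (SE), adjusted p = 0.455 on the log2 scale. Col5a2, Col5a3 and Col11a2, the other tested chains of collagens V and XI, passed in no comparison, and Col5a2 spanned 7.43-fold between its lowest and highest library.

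The 2 fibrillar chains that changed were the minor chains Col27a1 and Col24a1, which belong to a separate branch of the fibrillar family found in cartilage and developing bone. Markers of cartilage and bone summed to 2.20 to 8.73 CPM in Vehicle, 1.95 to 7.37 in ENZ, 2.16 to 3.91 in ADF and 2.72 to 12.4 in ADF+ENZ. Col27a1 was at 29.2, 21.5, 15.6 and 25.6 CPM in Vehicle and at 44.7, 55.96, 76.9 and 60.4 CPM in ENZ. With fasting the values were 32.9, 45.4, 57.6 and 57.5 CPM in ADF and 30.5, 75.8, 30.5 and 56.5 CPM in ADF+ENZ. All 12 treated libraries lay above all 4 Vehicle libraries. Col27a1 rose in ENZ against Vehicle by 1.37 ± 0.31 (SE), adjusted p = 0.0206 (log2), in ADF by 1.07 ± 0.31 (SE), adjusted p = 0.0455, and in ADF+ENZ by 1.08 ± 0.31 (SE), adjusted p = 0.0357. These comparisons share the 4 Vehicle libraries. The call in ENZ was lost without each of Vehicle replicates 2 and 3 and ENZ replicates 3 and 4 in turn (1.23 to 1.37, adjusted p 0.0509 to 0.0743). In ADF it was lost without each of Vehicle replicates 2, 3 and 4 and ADF replicates 2, 3 and 4 in turn (0.93 to 1.13, adjusted p 0.0684 to 0.122), with no filter on low counts (1.04, adjusted p 0.11) and with the reads in no feature as a covariate (0.32, adjusted p 0.869). In ADF+ENZ it was lost without each of Vehicle replicates 2, 3 and 4 and ADF+ENZ replicates 2 and 4 in turn (0.78 to 1.14, adjusted p 0.0665 to 0.101), with no filter on low counts (1.07, adjusted p 0.0926) and with only the groups compared in the fit (1.07, adjusted p 0.0924). The interaction was -1.36 ± 0.43 (SE), adjusted p = 0.09401, outside the threshold by edgeR and inside it by DESeq2 (-1.36, adjusted p = 0.0334) and limma-voom (-1.56, adjusted p = 0.0248). With the covariate it was -0.48, adjusted p 0.983.

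Col24a1 was at 18.9, 18.6, 14.3 and 22.7 CPM in Vehicle and at 27.7, 26.9, 29.98 and 30.1 CPM in ENZ. In ADF it was at 18.6, 24.05, 25.98 and 30.1 CPM, and in ADF+ENZ at 16.7, 23.6, 22.7 and 23.8 CPM. All 4 ENZ libraries lay above all 4 Vehicle and all 4 ADF+ENZ libraries, and the ADF libraries overlapped each of the others. Col24a1 rose in ENZ against Vehicle by 0.62 ± 0.15 (SE), adjusted p = 0.0175 (log2). That call was lost without each of Vehicle replicate 3 and ENZ replicate 3 in turn (0.52 to 0.60, adjusted p 0.0589 to 0.07102). Its interaction was -0.81 ± 0.21 (SE), adjusted p = 0.0424: the log2 difference of fasted from unfasted tumours was 0.41 ± 0.15 (SE), adjusted p = 0.0866 without enzalutamide and -0.40 ± 0.15 (SE), adjusted p = 0.189 with it. The first of these differences passed by limma-voom (0.46, adjusted p = 0.0482), and with the covariate it was 0.03, adjusted p 0.977. The interaction was lost without 12 of the 16 libraries, all but Vehicle replicate 4, ADF replicate 1 and ADF+ENZ replicates 2 and 4 (-0.84 to -0.70, adjusted p 0.0517 to 0.103) and with the reads in no feature as a covariate (-0.34, adjusted p 0.97).

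In the basement membrane class, the chains Col4a1 and Col4a2, which make the common collagen IV trimer, passed in no comparison. The genes lie head to head on chromosome 8 and their annotated starts share 22 bases (GRCm38). Col4a1 was at 2238, 962, 2297 and 1725 CPM in Vehicle and at 987, 2291, 1999 and 1409.5 CPM in ENZ. The ADF libraries were at 2358, 1378, 1987 and 1776 CPM and those of ADF+ENZ at 1475, 2366, 1030.2 and 2256 CPM. Col4a2 was at 1471, 715, 1473 and 1117 CPM in Vehicle and at 629, 1492, 1238 and 812 CPM in ENZ. Values were 1433, 969, 1290.4 and 1089.5 CPM in ADF and 952, 1593, 668 and 1638 CPM in ADF+ENZ. Over all libraries Col4a1 spanned 2.46-fold and Col4a2 2.60-fold, and the groups overlapped. Their ratio per kilobase was much steadier, at 1.36 ± 0.0878 (SD, n = 16) with a range of 1.19 to 1.54. In every group the library with the lowest Col4a1 was also the one with the lowest Col4a2. The log2 difference of Col4a1 was -0.11 ± 0.33 (SE), adjusted p = 0.897 in ENZ, 0.05 ± 0.33 (SE), adjusted p = 0.937 in ADF and -0.02 ± 0.33 (SE), adjusted p = 0.979 in ADF+ENZ, each against Vehicle. Summed endothelial markers, from cells that lay down collagen IV, were at 368 to 600.5 CPM in Vehicle, 387 to 714 in ENZ, 405 to 519.7 in ADF and 313 to 607 in ADF+ENZ. Of these 10 markers, 2 were higher in ENZ than in Vehicle, beside 1.81% of all genes. Their part in these values was not tested.

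Col4a5, on the X chromosome and known for its loss in Alport syndrome, was at 1424, 909, 1541 and 1412 CPM in Vehicle and at 1111, 1051, 809.9 and 550.0 CPM in ENZ. Its level was 1379, 849, 1091 and 1055 CPM in ADF and 581, 911, 362 and 832 CPM in ADF+ENZ. The ADF+ENZ libraries were the lowest as a group, with replicate 3 lowest of all, and replicate 2 just above the lowest Vehicle library. Col4a5 fell in ADF+ENZ against Vehicle by 0.98 on the log2 scale (-0.98 ± 0.28 (SE), adjusted p = 0.0378). This call was lost without each of Vehicle replicates 1, 3 and 4 and ADF+ENZ replicates 1 and 3 in turn (-0.95 to -0.77, adjusted p 0.0747 to 0.101), with no filter on low counts (-0.99, adjusted p 0.0912), with only the groups compared in the fit (-0.98, adjusted p 0.0684) and with the reads in no feature as a covariate (-0.84, adjusted p 0.0826). The difference was -0.59 ± 0.28 (SE), adjusted p = 0.265 in ENZ and -0.27 ± 0.28 (SE), adjusted p = 0.5802 in ADF, neither past the threshold. With the covariate the difference in ADF was -0.83, adjusted p 0.5596. Col4a5 thus stood at a high level per kilobase beside Col4a1 and Col4a2, while Col4a3 and Col4a4, its partners in the trimer of kidney and lung, were at 0.0428 and 0.246 CPM per kilobase.

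Col4a6, the neighbour of Col4a5 and its partner in smooth muscle and some epithelia, was at 25.4, 5.94, 17.1 and 26.5 CPM in Vehicle and at 18.6, 14.1, 12.1 and 6.23 CPM in ENZ. Under ADF it measured 30.5, 22.98, 18.9 and 24.4 CPM, and under ADF+ENZ 6.13, 8.89, 0.438 and 9.38 CPM. All 4 ADF+ENZ libraries lay below all 4 of ADF, and replicate 3 was far below the others. Col4a6 fell in ADF+ENZ against ADF (-1.89 ± 0.57 (SE), adjusted p = 0.04003). The call was lost without each of the 8 libraries in turn (-2.15 to -1.56, adjusted p 0.0503 to 0.0908), with no filter on low counts (-1.87, adjusted p 0.0804), with only the groups compared in the fit (-1.89, adjusted p 0.05897) and with the reads in no feature as a covariate (-0.33, adjusted p 1.0). Without ADF+ENZ replicate 3 the difference was -1.56. That library also had the lowest sum of epithelial markers of the 16, 298 CPM, against 564, 886 and 675 CPM in the other ADF+ENZ libraries and 519 to 668 CPM in ADF. Krt8 and Krt18 made up most of this sum, as each other member was at most 6.18 CPM in any library. The same library had the lowest endothelial sum of the 16 as well, 313 CPM, against 449.6, 382 and 607 CPM in the other ADF+ENZ libraries. The part of these sums in the result was not tested. The starts of Col4a5 and Col4a6 lie 1308 bases apart on opposite strands (GRCm38), and unlike Col4a1 and Col4a2 their ratio per kilobase was unsteady, from 43.8 to 979. The ratio of 979 was that of ADF+ENZ replicate 3 alone, with Col4a6 at 0.438 CPM, and the next highest was 181 in Vehicle replicate 2.

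**Figure D3:**
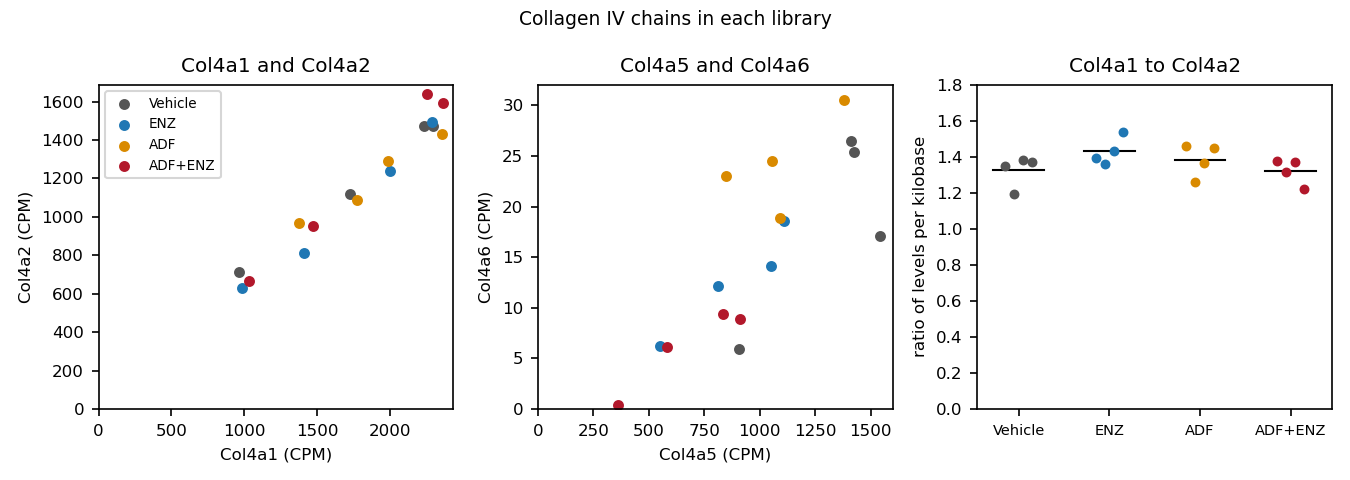
Col4a1 against Col4a2 and Col4a5 against Col4a6 in CPM for each of the 16 libraries, and the ratio of Col4a1 to Col4a2 per kilobase by group with the mean of 4 as a bar. The first pair lies near a line with ratios of 1.19 to 1.54, and the second pair scatters, with ADF+ENZ replicate 3 at 0.438 CPM of Col4a6.

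No chain of collagen VI passed in any comparison. Col6a1, which with Col6a2 and Col6a3 forms its trimer, was at 455, 396, 462 and 406 CPM in Vehicle and at 326, 373, 351 and 317 CPM in ENZ. With fasting the values were 342, 328, 456 and 421 CPM in ADF and 369, 453, 508 and 435 CPM in ADF+ENZ. All 4 ENZ libraries were below all 4 of Vehicle, with a log2 difference of -0.33 ± 0.11 (SE), adjusted p = 0.0912, outside the threshold by edgeR and inside it by DESeq2 (adjusted p = 0.0415). Col6a1 and Col6a2 spanned only 1.60-fold and 1.74-fold over the 16 libraries, and their ratio per kilobase ran from 4.01 to 5.63. Col6a3, the long chain of the same trimer, was at 323, 278, 341 and 408 CPM in Vehicle and at 211, 528, 361 and 215 CPM in ENZ. In ADF it was at 134, 504, 369 and 259 CPM, and in ADF+ENZ at 609.8, 310.0, 620.0 and 646 CPM. Its span was 4.82-fold, and ADF+ENZ replicate 2 stood below the other 3 ADF+ENZ libraries. The log2 difference of Col6a3 in ADF+ENZ was 0.70 ± 0.39 (SE), adjusted p = 0.272 against Vehicle and 0.73 ± 0.39 (SE), adjusted p = 0.395 against ENZ.

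Of the fibril-associated chains, only Col14a1 passed in any of the 6 contrasts, among 5 tested. It was lower in ADF+ENZ than in ADF, as were 7.54% of all genes. Col14a1, which binds collagen I fibrils and sets their spacing, was at 58.7, 47.7, 37.7 and 42.4 CPM in Vehicle and at 41.96, 43.5, 45.5 and 42.4 CPM in ENZ. The ADF libraries were at 39.9, 62.7, 51.1 and 54.1 CPM and those of ADF+ENZ at 29.4, 45.1, 29.6 and 36.1 CPM. In ADF+ENZ, 3 of 4 libraries lay below every ADF library, and replicate 2 was within the ADF range. Col14a1 fell in ADF+ENZ against ADF (-0.56 ± 0.15 (SE), adjusted p = 0.0209). That fall was lost without each of ADF replicates 2 and 4 and ADF+ENZ replicates 1 and 3 in turn (-0.54 to -0.46, adjusted p 0.0592 to 0.0722) and with the reads in no feature as a covariate (-0.15, adjusted p 1.0). Col16a1 was the steadiest of all 32 tested chains, with a span of 1.56-fold, while Col12a1, a chain of tendon and of fibroblasts under tension, spanned 10.95-fold with no difference past the threshold. Col20a1 and Col9a3 were low, at 0.608 and 0.675 CPM per kilobase, and passed in no comparison.

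All 3 short-chain network chains passed in at least 1 of the 6 contrasts, as did 12 of the 32 tested chains. Of the 3, 1 rose in ADF against Vehicle, 1 fell in ADF+ENZ against Vehicle and 2 fell in ADF+ENZ against ADF. The shares of all genes in the same directions were 4.05%, 6.53% and 7.54%. Col8a1, a chain of the collagen VIII of vessel walls and corneal membrane, was at 122, 189, 117 and 196 CPM in Vehicle and at 89.6, 128, 127 and 88.1 CPM in ENZ. Values were 145, 143, 144 and 132 CPM in ADF and 64.3, 98.2, 53.5 and 112 CPM in ADF+ENZ. All 4 ADF+ENZ libraries lay below all 4 Vehicle and all 4 ADF libraries, and overlapped ENZ. Col8a1 fell in ADF+ENZ against Vehicle (-0.92 ± 0.23 (SE), adjusted p = 0.0202) and against ADF (-0.77 ± 0.23 (SE), adjusted p = 0.03702). The first call was lost without each of Vehicle replicates 2 and 4 and ADF+ENZ replicates 1 and 3 in turn (-0.82 to -0.77, adjusted p 0.0512 to 0.0603), with no filter on low counts (-0.94, adjusted p 0.0567) and with only the groups compared in the fit (-0.93, adjusted p 0.0776). The second was lost without each of ADF replicates 1, 2, 3 and 4 and ADF+ENZ replicates 1 and 3 in turn (-0.80 to -0.62, adjusted p 0.0594 to 0.0975), with no filter on low counts (-0.76, adjusted p 0.106) and with the reads in no feature as a covariate (-0.70, adjusted p 1.0). Summed markers of pericytes and smooth muscle, cells that make collagen VIII, were at 565 to 713 CPM in Vehicle, 613 to 783 in ADF and 567 to 827 in ADF+ENZ, with 0 of 9 tested markers past the threshold in either comparison by edgeR, DESeq2 or limma-voom (unadjusted edgeR p under 0.05 for 1 of 9 in each). Of all genes, 12.5% and 16.3% passed in these 2 comparisons by edgeR.

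Col8a2, the partner of Col8a1 at a far lower level, was at 0.297, 0.857, 0.327 and 1.44 CPM in Vehicle and at 1.43, 1.09, 1.08 and 0.415 CPM in ENZ. Its level was 0.6396, 3.44, 1.65 and 2.51 CPM in ADF and 0.4901, 1.0, 0.548 and 0.768 CPM in ADF+ENZ. ADF held the 3 highest libraries and also replicate 1, which was within the range of ADF+ENZ. Col8a2 fell in ADF+ENZ against ADF (-1.53 ± 0.51 (SE), adjusted p = 0.0491). The call was lost without each of ADF replicates 2, 3 and 4 and ADF+ENZ replicates 1, 2, 3 and 4 in turn (-1.72 to -1.15, adjusted p 0.0526 to 0.149), with no filter on low counts (-1.51, adjusted p 0.0893) and with the reads in no feature as a covariate (-0.31, adjusted p 1.0). Col10a1, best known as the collagen of growing cartilage, was at 2.199, 1.43, 1.24 and 1.88 CPM in Vehicle and at 2.51, 2.12, 1.38 and 1.41 CPM in ENZ. Under ADF it measured 3.36, 3.198, 2.68 and 5.09 CPM, and under ADF+ENZ 1.96, 3.05, 1.64 and 1.37 CPM. All 4 ADF libraries lay above all 4 of Vehicle. Col10a1 rose in ADF against Vehicle (1.08 ± 0.29 (SE), adjusted p = 0.0252). It was lost without each of Vehicle replicates 2 and 3 and ADF replicate 4 in turn (0.86 to 1.004, adjusted p 0.0737 to 0.105) and with the reads in no feature as a covariate (0.05, adjusted p 0.992). Neither gene was above 5.09 CPM in any library, so each value rests on few reads.

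The multiplexins Col15a1 and Col18a1 are basement membrane collagens that carry sugar chains, and the end of Col18a1 is the source of endostatin. Col18a1 was at 528, 573, 455 and 398 CPM in Vehicle and at 317, 516, 611 and 503 CPM in ENZ. With fasting the values were 401, 430.0, 420.3 and 438 CPM in ADF and 623, 575, 720.1 and 649 CPM in ADF+ENZ. All 4 ADF+ENZ libraries lay above all 4 ADF and all 4 Vehicle libraries. Col18a1 rose in ADF+ENZ against ADF (0.60 ± 0.15 (SE), adjusted p = 0.0139), and against Vehicle the difference was 0.39 ± 0.15 (SE), adjusted p = 0.0906. The call was lost without ADF+ENZ replicate 3 (0.54, adjusted p 0.0539) and with the reads in no feature as a covariate (0.14, adjusted p 1.0). Col15a1, at 4.59 CPM per kilobase, passed in no comparison and its log2 difference in ADF+ENZ against ADF was -0.87 ± 0.39 (SE), adjusted p = 0.141.

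The transmembrane collagens were all under 10 CPM, and their sum was 5.47 to 7.32 CPM in Vehicle, 6.23 to 7.10 in ENZ, 8.65 to 11.4 in ADF and 8.50 to 10.5 in ADF+ENZ. All 8 fasted libraries were thus above all 8 unfasted ones in this sum, for which no test was made. Col17a1, the hemidesmosome collagen that ties epithelium to its basement membrane, was at 2.44, 4.69, 3.99 and 3.65 CPM in Vehicle and at 4.65, 4.03, 4.33 and 2.91 CPM in ENZ. In ADF it was at 7.75, 5.03, 6.14 and 5.59 CPM, and in ADF+ENZ at 4.98, 4.05, 4.49 and 4.77 CPM. All 4 ADF libraries lay above all 4 of Vehicle and all 4 of ADF+ENZ. Col17a1 rose in ADF against Vehicle (0.73 ± 0.20 (SE), adjusted p = 0.0315). This rise was lost without each of Vehicle replicates 1, 3 and 4 and ADF replicates 1, 3 and 4 in turn (0.56 to 0.77, adjusted p 0.0591 to 0.0874), with only the groups compared in the fit (0.73, adjusted p 0.0591) and with the reads in no feature as a covariate (1.10, adjusted p 0.261). Col13a1, a collagen of cell adhesion sites and the nerve-muscle junction, was at 1.49, 1.66, 0.851 and 1.38 CPM in Vehicle and at 0.984, 2.39, 1.62 and 2.201 CPM in ENZ. The ADF libraries were at 1.28, 1.72, 2.13 and 1.29 CPM and those of ADF+ENZ at 1.96, 2.92, 2.19 and 3.72 CPM. All 4 ADF+ENZ libraries lay above all 4 of Vehicle. Col13a1 rose in ADF+ENZ against Vehicle (1.03 ± 0.29 (SE), adjusted p = 0.02598). The call was lost without each of Vehicle replicates 3 and 4 and ADF+ENZ replicates 2 and 4 in turn (0.81 to 1.04, adjusted p 0.05101 to 0.0951) and with the reads in no feature as a covariate (1.003, adjusted p 0.0538). Col23a1 was higher in all 4 ADF+ENZ than in all 4 ENZ libraries without passing the threshold (0.92 ± 0.28 (SE), adjusted p = 0.113).

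Col7a1, the collagen of the anchoring fibrils that fasten basement membrane to the tissue below, was the chain with the smallest adjusted p. It was at 141, 132, 114 and 160.5 CPM in Vehicle and at 108, 126, 129 and 131 CPM in ENZ. Values were 166, 199, 241 and 206 CPM in ADF and 139.5, 137, 132 and 138 CPM in ADF+ENZ. All 4 ADF libraries lay above all 12 others. Col7a1 rose in ADF against Vehicle by 0.57 ± 0.11 (SE), adjusted p = 0.003899 (log2, edgeR). It fell in ADF+ENZ against ADF, by 0.57 on the log2 scale (-0.57 ± 0.11 (SE), adjusted p = 0.00369). These share the ADF libraries. Both were kept when each library was left out in turn, alone among the 17 calls, with ranges of 0.48 to 0.66 and -0.66 to -0.48. Both were lost with the reads in no feature as a covariate (0.38, adjusted p 0.464, and -0.33, adjusted p 1.0). The interaction was -0.42 ± 0.15 (SE), adjusted p = 0.121, so a different fasting effect with enzalutamide was not called, and with the covariate it was -0.19, adjusted p 0.983. Summed keratinocyte markers, from cells known to make it, were at 5.66 to 8.64 CPM in Vehicle and 6.53 to 9.11 CPM in ADF. Col28a1, the other tested chain of this class, stood at 0.247 CPM per kilobase and passed in no comparison.

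**Figure D4:**
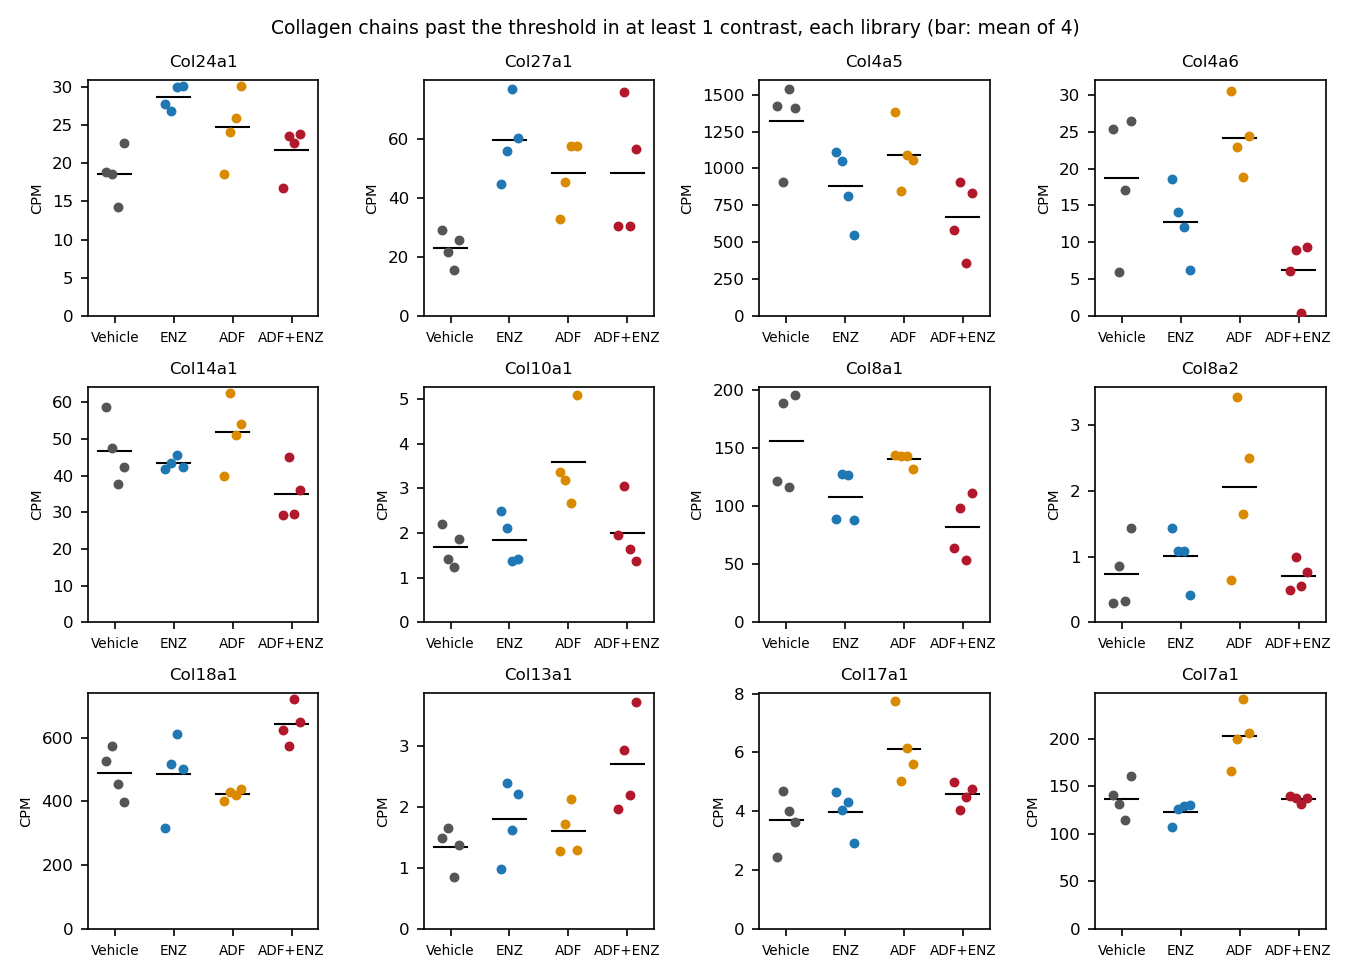
CPM of the 12 chains past the threshold in at least 1 contrast, for each of the 4 libraries per group, with the group mean as a bar. Col7a1 is highest in the 4 ADF libraries, Col27a1 is lowest in the 4 Vehicle libraries, and for Col8a1 and Col18a1 the ADF+ENZ and ADF libraries do not overlap.

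Among the genes that process and bind collagen, P4ha1, P4ha2, Loxl4, Pcolce and Ddr1 fell against Vehicle in all 3 treated groups. Of 20 hydroxylases and chaperones that modify and fold new chains, 2 fell in ENZ against Vehicle, 8 in ADF against Vehicle and 4 in ADF+ENZ against Vehicle, beside 3.62%, 4.96% and 6.53% of all genes lower. None was called higher by edgeR in these, while DESeq2 and limma-voom each called 1 higher in ADF, P4ha3 (0.93, adjusted p = 0.0266, and 1.06, adjusted p = 0.0203), which was at 0.94 with an edgeR adjusted p of 0.0531. The list's median log2 difference was -0.19, -0.32 and -0.12, beside 0.01, 0.01 and 0.00 for all genes tested. In ADF+ENZ against ENZ 0 of 20 passed by edgeR, DESeq2 and limma-voom (unadjusted edgeR p under 0.05 for 6), beside 1.09% of all genes by edgeR. In ADF+ENZ against ADF 3 rose and 1 fell, beside 8.72% of all genes higher and 7.54% lower. With the reads in no feature as a covariate, 0 of 20 passed by edgeR in ADF against Vehicle and 0 of 20 in ADF+ENZ against ADF. Of all genes, 6 and 0 passed in those fits, so the 0 of 20 is not particular to this list. With DESeq2 the count in ENZ against Vehicle was 4. P4ha1, a catalytic subunit of the prolyl hydroxylase that stabilises the helix, was at 144, 133, 219 and 122 CPM in Vehicle and at 102, 97.5, 95.8 and 72.4 CPM in ENZ. Its level was 53.1, 64.1, 76.4 and 64.9 CPM in ADF and 74.3, 74.3, 84.8 and 61.9 CPM in ADF+ENZ. All 12 treated libraries were below all 4 of Vehicle. The log2 difference of P4ha1 from Vehicle was -0.75 ± 0.17 (SE), adjusted p = 0.0149 in ENZ, -1.26 ± 0.17 (SE), adjusted p = 6.25e-04 in ADF and -1.07 ± 0.17 (SE), adjusted p = 0.00107 in ADF+ENZ. The call in ENZ was lost with only the groups compared in the fit (-0.76, adjusted p 0.0601), and that in ADF with the reads in no feature as a covariate (-1.19, adjusted p 0.202).

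P4ha2, another such subunit, was at 102, 112, 131 and 89.1 CPM in Vehicle and at 55.7, 57.8, 61.6 and 53.1 CPM in ENZ. Under ADF it measured 38.6, 47.97, 58.6 and 51.8 CPM, and under ADF+ENZ 55.9, 46.8, 57.6 and 53.3 CPM. Here too no treated library reached the lowest of Vehicle. P4ha2 fell in ENZ (-0.93 ± 0.12 (SE), adjusted p = 1.73e-04), ADF (-1.14 ± 0.12 (SE), adjusted p = 8.11e-05) and ADF+ENZ (-1.03 ± 0.12 (SE), adjusted p = 4.53e-05), all against Vehicle. Only the call in ADF was lost among those 3, with the reads in no feature as a covariate (-1.02, adjusted p 0.111). Its interaction was 1.04 ± 0.17 (SE), adjusted p = 0.00645, and was lost with the reads in no feature as a covariate (0.89, adjusted p 0.818). The interaction of P4ha1 was 0.94 ± 0.24 (SE), adjusted p = 0.0426, and was lost without 12 of the 16 libraries, all but Vehicle replicates 1 and 4, ADF replicate 3 and ADF+ENZ replicate 4 (0.73 to 1.01, adjusted p 0.0506 to 0.0964), with no filter on low counts (0.96, adjusted p 0.0691) and with the reads in no feature as a covariate (0.85, adjusted p 0.922).

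Plod2, the lysyl hydroxylase of the chain ends that sets the kind of crosslink, was at 94.4, 117, 97.4 and 88.6 CPM in Vehicle and at 59.2, 83.1, 73.8 and 67.3 CPM in ENZ. With fasting the values were 37.6, 60.2, 65.9 and 43.4 CPM in ADF and 90.7, 75.3, 122 and 89.4 CPM in ADF+ENZ. It fell in ADF against Vehicle (-0.94 ± 0.17 (SE), adjusted p = 0.00478) and rose in ADF+ENZ against ADF (0.86 ± 0.17 (SE), adjusted p = 0.006402). Its interaction was 1.35 ± 0.25 (SE), adjusted p = 0.0128. These 3 calls were kept without each library in turn and were lost with the reads in no feature as a covariate (-0.46, 0.25 and 0.73). P4hb, the shared partner subunit of prolyl hydroxylase, was at 911 ± 88.6 CPM (SD, n = 4) in Vehicle, 661 ± 66.1 in ADF and 918 ± 153 in ADF+ENZ. It fell in ADF against Vehicle (-0.46 ± 0.11 (SE), adjusted p = 0.0176) and rose in ADF+ENZ against ADF (0.47 ± 0.11 (SE), adjusted p = 0.0112), with a difference of 0.01 ± 0.11 (SE), adjusted p = 0.964 between ADF+ENZ and Vehicle. The fall of P4hb was lost without each of Vehicle replicate 2 and ADF replicate 4 in turn (-0.41 to -0.40, adjusted p 0.0603 to 0.0687) and with the reads in no feature as a covariate (-0.13, adjusted p 0.835). Its interaction was 0.75 ± 0.16 (SE), adjusted p = 0.0211. The rise of P4hb was lost with the reads in no feature as a covariate (0.05, adjusted p 1.0), and its interaction without each of ADF replicate 4 and ADF+ENZ replicate 3 in turn (0.66 to 0.70, adjusted p 0.0523 to 0.0568) and with the reads in no feature as a covariate (0.32, adjusted p 0.953).

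Plod3, a lysyl hydroxylase that also adds sugars, fell in ADF against Vehicle (-0.43 ± 0.09 (SE), adjusted p = 0.01003) and in ADF+ENZ against Vehicle (-0.34 ± 0.09 (SE), adjusted p = 0.0226). The first of these was lost with the reads in no feature as a covariate (-0.14, adjusted p 0.7905), and the second without each of Vehicle replicates 2 and 3 and ADF+ENZ replicates 1 and 2 in turn (-0.33 to -0.24, adjusted p 0.0567 to 0.0759) and with only the groups compared in the fit (-0.35, adjusted p 0.05498). Colgalt1, which adds galactose to collagen, fell in ADF+ENZ against Vehicle (-0.37 ± 0.08 (SE), adjusted p = 0.00679). It also fell in ADF against Vehicle (-0.31 ± 0.08 (SE), adjusted p = 0.0246), where 0 of the 20 genes of its list passed with the covariate. P3h1, a prolyl 3-hydroxylase, rose in ADF+ENZ against ADF (0.40 ± 0.10 (SE), adjusted p = 0.01695), a call lost without each of ADF replicates 3 and 4 in turn (0.32 to 0.37, adjusted p 0.0542 to 0.06996) and with the reads in no feature as a covariate (0.11, adjusted p 1.0). P4ha3, a scarce subunit of the same kind at 3.86 ± 0.942 CPM (SD, n = 4) in ADF and 1.81 ± 0.354 in ADF+ENZ, went the other way (-1.07 ± 0.30 (SE), adjusted p = 0.0238). With the covariate that difference changed sign (0.25, adjusted p 1.0), and it was lost without each of ADF replicates 3 and 4 and ADF+ENZ replicate 3 in turn (-1.03 to -0.93, adjusted p 0.06897 to 0.0758). Its interaction was -1.77 ± 0.42 (SE), adjusted p = 0.0315, lost without each of Vehicle replicates 2 and 3, ENZ replicate 1, ADF replicates 2, 3 and 4 and ADF+ENZ replicates 1 and 3 in turn (-1.84 to -1.58, adjusted p 0.0508 to 0.0689) and with the reads in no feature as a covariate (-0.51, adjusted p 0.974).

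Of 12 tested genes for propeptide processing and crosslinking, 1 rose and 3 fell in ENZ against Vehicle, and the same counts held in ADF against Vehicle. In ADF+ENZ against Vehicle 2 rose and 2 fell. Of all genes, 5.43%, 9.01% and 12.5% passed in these comparisons. With the covariate edgeR called 0 of 12 in ADF against Vehicle, where that fit also left few calls among all genes. Lox, the lysyl oxidase that crosslinks fibrils, was at 464, 813, 529.9 and 405 CPM in Vehicle and at 269.9, 314, 267 and 349 CPM in ENZ. In ADF it was at 202, 369.7, 326 and 275 CPM, and in ADF+ENZ at 420.5, 361, 410.2 and 329 CPM. Every ENZ and ADF library was below every Vehicle library. Lox fell in ENZ (-0.88 ± 0.20 (SE), adjusted p = 0.0201) and in ADF (-0.92 ± 0.20 (SE), adjusted p = 0.0145). The call in ENZ was lost without each of Vehicle replicate 3 and ENZ replicate 3 in turn (-0.90 to -0.83, adjusted p 0.05305 to 0.0741) and with no filter on low counts (-0.89, adjusted p 0.0691), and that in ADF without ADF replicate 4 (-0.89, adjusted p 0.0516), with only the groups compared in the fit (-0.91, adjusted p 0.0639) and with the reads in no feature as a covariate (-0.49, adjusted p 0.676). Its interaction was 1.26 ± 0.29 (SE), adjusted p = 0.0315, lost without each of Vehicle replicate 3, ENZ replicates 1, 2 and 3, ADF replicate 4 and ADF+ENZ replicates 1 and 3 in turn (1.21 to 1.28, adjusted p 0.0527 to 0.0739), with no filter on low counts (1.27, adjusted p 0.0762) and with the reads in no feature as a covariate (0.73, adjusted p 0.951).

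Loxl4, another lysyl oxidase, was at 124, 87.2, 117 and 77.5 CPM in Vehicle and at 52.6, 51.4, 67.5 and 58.6 CPM in ENZ. The ADF libraries were at 69.5, 46.2, 62.8 and 78.1 CPM and those of ADF+ENZ at 39.6, 50.4, 40.4 and 40.4 CPM. Loxl4 fell in ENZ (-0.82 ± 0.16 (SE), adjusted p = 0.00826), ADF (-0.66 ± 0.16 (SE), adjusted p = 0.0216) and ADF+ENZ (-1.25 ± 0.17 (SE), adjusted p = 2.75e-04), each against Vehicle, and in ADF+ENZ against ADF (-0.58 ± 0.17 (SE), adjusted p = 0.0268). The call in ADF was lost without each of Vehicle replicate 3 and ADF replicate 3 in turn (-0.65 to -0.59, adjusted p 0.05099 to 0.0662), with only the groups compared in the fit (-0.66, adjusted p 0.0703) and with the reads in no feature as a covariate (-0.85, adjusted p 0.323), and that against ADF without each of ADF replicates 1, 3 and 4 and ADF+ENZ replicates 1, 3 and 4 in turn (-0.59 to -0.47, adjusted p 0.0517 to 0.0992), with no filter on low counts (-0.57, adjusted p 0.0696) and with the reads in no feature as a covariate (-0.35, adjusted p 1.0). Pcolce, which speeds the removal of the C-terminal propeptide, averaged 559 ± 40.8 CPM (SD, n = 4) in Vehicle, and the treated groups ENZ, ADF and ADF+ENZ had 379 ± 60.2, 433 ± 57.1 and 361 ± 16.1. It fell in ENZ (-0.56 ± 0.11 (SE), adjusted p = 0.00537), ADF (-0.37 ± 0.11 (SE), adjusted p = 0.0417) and ADF+ENZ (-0.63 ± 0.11 (SE), adjusted p = 0.00146). Its call in ADF was lost without each of Vehicle replicates 2, 3 and 4 and ADF replicates 1, 2 and 4 in turn (-0.39 to -0.29, adjusted p 0.0599 to 0.123), with limma-voom (-0.28, adjusted p 0.0617), with only the groups compared in the fit (-0.36, adjusted p 0.05497) and with the reads in no feature as a covariate (-0.38, adjusted p 0.516).

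Adamts3, a protease that removes the N-terminal propeptide, rose against Vehicle in ENZ (1.12 ± 0.23 (SE), adjusted p = 0.00834), ADF (0.87 ± 0.23 (SE), adjusted p = 0.0279) and ADF+ENZ (1.15 ± 0.23 (SE), adjusted p = 0.00428). Its mean was 5.73 ± 1.57 CPM (SD, n = 4) in Vehicle, and the treated groups ENZ, ADF and ADF+ENZ had 12.5 ± 2.82, 10.5 ± 3.07 and 12.8 ± 2.15. The rise in ADF was lost without each of Vehicle replicates 3 and 4 and ADF replicates 2, 3 and 4 in turn (0.74 to 0.82, adjusted p 0.0639 to 0.0962), with no filter on low counts (0.84, adjusted p 0.05002), with only the groups compared in the fit (0.87, adjusted p 0.0572) and with the reads in no feature as a covariate (0.75, adjusted p 0.573). Adamts14, of the same family, rose in ADF+ENZ against Vehicle (0.52 ± 0.16 (SE), adjusted p = 0.0475), a call lost without each of Vehicle replicates 2, 3 and 4 and ADF+ENZ replicates 1, 2, 3 and 4 in turn (0.43 to 0.58, adjusted p 0.0523 to 0.15), with limma-voom (0.47, adjusted p 0.0598), with no filter on low counts (0.51, adjusted p 0.144) and with the reads in no feature as a covariate (0.55, adjusted p 0.0769).

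**Figure D5:**
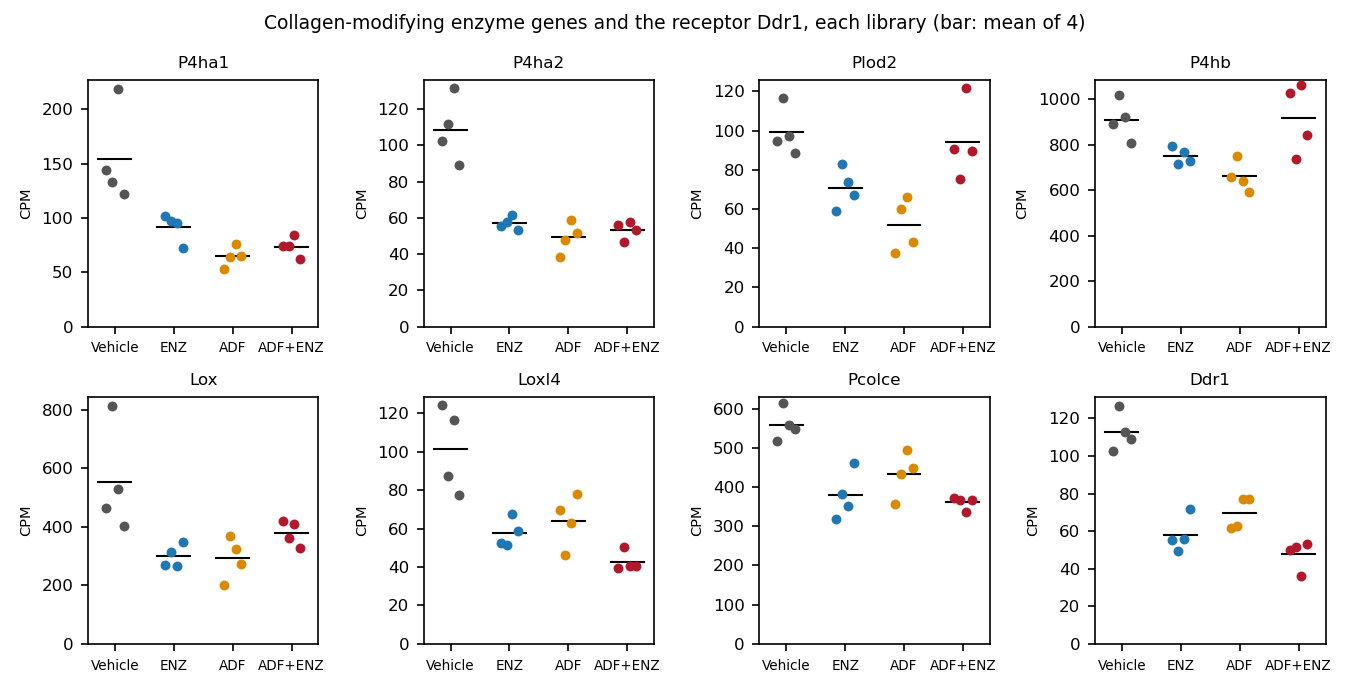
CPM of 6 genes for hydroxylation, folding and crosslinking, the propeptide enhancer Pcolce and the receptor Ddr1 in each of the 4 libraries per group, with the group mean as a bar. P4ha1, P4ha2 and Ddr1 are lower in all 12 treated libraries than in the 4 Vehicle libraries, and Plod2 is higher in the 4 ADF+ENZ than in the 4 ADF libraries.

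Of 9 tested collagen receptors, 2 fell in each comparison with Vehicle and none rose by edgeR, DESeq2 or limma-voom, beside 3.62% (ENZ), 4.96% (ADF) and 6.53% (ADF+ENZ) of all genes lower. With the covariate edgeR called 0 of 9 in ADF, where that fit also left few calls among all genes, and 1 of 9 in ADF+ENZ. Ddr1, a receptor tyrosine kinase that binds collagens I and IV, was at 103, 127, 113 and 109 CPM in Vehicle and at 55.3, 49.5, 55.8 and 71.5 CPM in ENZ. Values were 61.7, 62.8, 77.3 and 77.2 CPM in ADF and 49.99, 51.8, 36.3 and 53.02 CPM in ADF+ENZ. All 12 treated libraries lay below all 4 of Vehicle. Ddr1 fell in ENZ (-0.96 ± 0.13 (SE), adjusted p = 2.00e-04), ADF (-0.69 ± 0.13 (SE), adjusted p = 0.003098) and ADF+ENZ (-1.23 ± 0.13 (SE), adjusted p = 1.60e-05), and was lower in ADF+ENZ than in ADF (-0.54 ± 0.13 (SE), adjusted p = 0.0105). The calls against ADF and in ADF against Vehicle were lost with the reads in no feature as a covariate (-0.33 and -0.87). Itga10, a collagen-binding integrin subunit of cartilage, fell in ENZ against Vehicle (-1.12 ± 0.24 (SE), adjusted p = 0.0172), in ADF+ENZ against Vehicle (-0.88 ± 0.24 (SE), adjusted p = 0.0297) and in ADF+ENZ against ADF (-1.04 ± 0.24 (SE), adjusted p = 0.0141). These were lost without each of Vehicle replicate 3 and ENZ replicates 2, 3 and 4 in turn (-1.11 to -1.004, adjusted p 0.0517 to 0.0649) and with only the groups compared in the fit (-1.12, adjusted p 0.0686), then without each of Vehicle replicates 1, 3 and 4 and ADF+ENZ replicates 1, 3 and 4 in turn (-0.90 to -0.80, adjusted p 0.0521 to 0.0792), with no filter on low counts (-0.90, adjusted p 0.0624) and with the reads in no feature as a covariate (-0.71, adjusted p 0.0677), and the last with the reads in no feature as a covariate (-0.27, adjusted p 1.0). Itgb1, the shared β subunit, fell in ADF against Vehicle (-0.33 ± 0.08 (SE), adjusted p = 0.0163) and rose in ADF+ENZ against ADF (0.34 ± 0.08 (SE), adjusted p = 0.00993). The fall was lost without each of Vehicle replicate 3 and ADF replicate 4 in turn (-0.32 to -0.31, adjusted p 0.0509 to 0.0577) and with the reads in no feature as a covariate (-0.26, adjusted p 0.496), and the rise with the reads in no feature as a covariate (0.25, adjusted p 1.0).

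Among 8 collagen-degrading enzymes, only Ctsl, the lysosomal protease cathepsin L, passed in any of the 6 contrasts. It was at 804 ± 100.1 CPM (SD, n = 4) in Vehicle, 579 ± 121 in ADF and 998 ± 162 in ADF+ENZ. Ctsl fell in ADF against Vehicle (-0.47 ± 0.15 (SE), adjusted p = 0.0497) and rose in ADF+ENZ against ADF (0.78 ± 0.15 (SE), adjusted p = 0.00369), with an interaction of 0.83 ± 0.21 (SE), adjusted p = 0.0385. Of all genes, 4.96%, 8.72% and 2.18% passed in the same directions. The fall was lost without each of Vehicle replicates 1, 2 and 3 and ADF replicates 2, 3 and 4 in turn (-0.50 to -0.37, adjusted p 0.0875 to 0.162), with the stricter filter (-0.47, adjusted p 0.0514), with no filter on low counts (-0.50, adjusted p 0.0607), with only the groups compared in the fit (-0.47, adjusted p 0.0644) and with the reads in no feature as a covariate (-0.08, adjusted p 0.932). The rise was lost with the reads in no feature as a covariate (0.27, adjusted p 1.0), and the interaction without 11 of the 16 libraries, all but Vehicle replicate 4, ENZ replicate 2, ADF replicate 1 and ADF+ENZ replicates 2 and 4 (0.73 to 0.86, adjusted p 0.0511 to 0.0856) and with the reads in no feature as a covariate (0.32, adjusted p 0.967). The gelatinases Mmp2 and Mmp9 and the membrane collagenase Mmp14 passed in no comparison.

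Among 8 partners of collagen IV in basement membranes, Fbln2, fibulin-2, was at 257 ± 59.3 CPM (SD, n = 4) in Vehicle, and ENZ, ADF and ADF+ENZ had 82.1 ± 25.5, 141 ± 44.1 and 94.99 ± 26.96. It fell in ENZ (-1.65 ± 0.28 (SE), adjusted p = 0.00481) and in ADF+ENZ (-1.43 ± 0.28 (SE), adjusted p = 0.00625) against Vehicle. In ADF against Vehicle its difference was -0.86 ± 0.28 (SE), adjusted p = 0.0673 by edgeR, and it passed by DESeq2 (-0.88, adjusted p = 0.0266) and limma-voom (-0.74, adjusted p = 0.0455). Sparc, a collagen-binding protein also known as osteonectin, fell in ADF against Vehicle (-0.47 ± 0.14 (SE), adjusted p = 0.0465), a call lost without each of Vehicle replicates 1, 2, 3 and 4 and ADF replicates 1, 3 and 4 in turn (-0.51 to -0.40, adjusted p 0.0532 to 0.129), with the stricter filter (-0.46, adjusted p 0.0501) and with the reads in no feature as a covariate (-0.28, adjusted p 0.755). The nidogens, perlecan (Hspg2) and agrin passed in no comparison by edgeR. Hspg2 was at 0.52 ± 0.17 (SE), adjusted p = 0.0688 in ADF against Vehicle, and passed by DESeq2 (0.51, adjusted p = 0.0367) and limma-voom (0.52, adjusted p = 0.0460). Nid2 passed by DESeq2 alone in ADF+ENZ against Vehicle (-0.80, adjusted p = 0.0159).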

How the data were processed

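Total RNA of 16 tumours, 4 per group, was sequenced. Per the submitters' processing notes, the tools were HISAT2, Trim Galore, DESeq2 and featureCounts, without versions, and the builds named are mm39 and GRCh38, without a role for either. The table the authors deposited holds raw counts per Ensembl gene ID, with 5 further entries under the names htseq-count writes, which were kept out of the tests. Their part in all reads was used as a library measure. Symbols were found for 52081 of 55414 IDs in an annotation of GRCm38, an earlier build than mm39, which also gave gene class, exon length and the order of neighbours. Reads that the authors' counting may have assigned to antisense or overlapping genes were not separated: whether strand was used is not given in these sources.

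Genes were tested with edgeR 4.0.16 (R 4.3.3), robust quasi-likelihood, TMM and filterByExpr (minimum count 10, total 15), with all 16 libraries in 1 fit, 18946 genes tested and Benjamini-Hochberg adjustment per contrast at 0.05. The script was tested on simulated data. CPM are TMM-scaled. DESeq2 1.42.0 and limma 3.58.1 (limma-voom), other filters, a covariate and leaving out each library were alternatives. Counts of 24 replicate pairs differed by a chi-square of 5.19 to 33.9 per degree of freedom, above counting error, so none was counted as a repeat. Chains named with every library are those past the threshold in any contrast and the 10 highest per kilobase, and pathway genes are up to 4 per direction and contrast by adjusted p. Hspg2, Nid2, and the values of P4hb, P4ha3, Fbln2 and Colgalt1 in ADF against Vehicle are given outside this rule, chosen once their values were known. The members, classes and lists were chosen with earlier results of these data known.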

Additional observations from a re-analysis of the deposited data

Results flagged for a closer look

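The 20 chains given library by library make 80 groups of 4 libraries. Of these, 3 held a library that stood apart from its group, where chance flags about 1 in 20 groups (5%). Col24a1 in ADF+ENZ replicate 1 was at 16.7 CPM, with the other 3 libraries at 22.7 to 23.8 CPM. Without that library the interaction of Col24a1 was -0.70 (adjusted p = 0.0844) by edgeR. Col6a3 in ADF+ENZ replicate 2 was at 310.0 CPM, with the others at 609.8 to 646.4 CPM. Without it the log2 difference of Col6a3 in ADF+ENZ against Vehicle was 0.89 (adjusted p = 0.172), compared with 0.70 (adjusted p = 0.272) with it, by edgeR. Col8a1 in ADF replicate 4 was at 132.3 CPM, with the others at 143.1 to 144.6 CPM.

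The effect of fasting on Col24a1 differed between tumours without and with enzalutamide, by -0.81 (adjusted p = 0.0424) on the log2 scale by edgeR. As given above, this call was lost without 12 of the 16 libraries and with the covariate (-0.34, adjusted p 0.97). Neither fasting difference passed alone by edgeR. The level of Col24a1 was 18.6 ± 3.45 CPM (SD, n = 4) in the Vehicle tumours, against 24.7 ± 4.77 in those with fasting alone. Tumours given enzalutamide were at 28.7 ± 1.62 CPM when fed freely and 21.7 ± 3.34 when fasted.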

How the results depend on the processing

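Of the 17 calls of a chain in a comparison, all 17 were kept with DESeq2, with DESeq2 size factors, with limma-voom and with the stricter filter (at least 1 CPM in 4 libraries). With no filter 10 were kept, with only the groups compared in the fit 11 of 16, and with the reads in no feature as a covariate 4 of 17. Leaving out each library in turn kept 2 of the 17 every time, both of Col7a1. The count of chains past the threshold in ENZ against Vehicle was 2, and 4 with DESeq2. In ADF against Vehicle it was 4, and 0 by edgeR with the covariate. The count in ADF+ENZ against Vehicle was 4, with 1 under no filter, 1 with only the groups compared and 2 with the covariate. Fasting in enzalutamide-treated mice (ADF+ENZ against ENZ) gave 0, with 2 under DESeq2 and 1 each under DESeq2 size factors, limma-voom and no filter. Enzalutamide in fasted mice (ADF+ENZ against ADF) gave 6, with 3 under no filter and 0 with the covariate. The interaction had 1, with 3 under DESeq2, 2 each under limma-voom and no filter, and 0 with the covariate. Leaving out 1 library gave counts of 0 to 2 in ENZ against Vehicle, 1 to 7 in ADF against Vehicle, 0 to 4 in ADF+ENZ against Vehicle, 0 to 1 in ADF+ENZ against ENZ, 1 to 6 in ADF+ENZ against ADF and 0 to 2 for the interaction. With the longest transcript as length, Col3a1 was at 624.1, Col1a2 at 372.2 and Col18a1 at 91.1 CPM per kilobase. P4ha3 in ADF+ENZ against ADF changed sign to 0.25 with the covariate. The cause of these changes was not tested.

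Over all genes, the number past the threshold in ENZ against Vehicle was 1028, with 1594 by DESeq2 and 1680 by limma-voom. In ADF against Vehicle it was 1707, and 6 with the covariate. In ADF+ENZ against Vehicle it was 2369, and 1579 with the covariate. In ADF+ENZ against ENZ it was 206, with 693 by DESeq2, 54 with only the groups compared and 43 with the covariate. In ADF+ENZ against ADF it was 3081 and for the interaction 587, and both were 0 by edgeR with the covariate. The interaction count was 1363 by DESeq2. Leaving out 1 library gave 403 to 1194, 610 to 1862, 1202 to 2286, 20 to 358, 1197 to 3403 and 148 to 908 in the same order. No paired analysis was possible because the replicate numbers follow the order of the samples and pair no tumours across groups. Depth limits the scarce chains: 12 of 44 did not pass the filter on low counts and were not tested.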
